A study of Drosophila melanogaster with 12 samples.

Results

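The genes described here encode the subunits of the proteasome in Drosophila melanogaster. They were taken as every gene whose symbol starts with Rpn, Rpt, Prosalpha or Prosbeta followed by a number, and that had a probe set annotated to that gene alone. The rule found 40 genes of 11982 with a probe set of their own, 26 canonical subunits and 14 R or T forms, which are named as relatives of a canonical subunit. Each of the 40 had 1 probe set, and all 40 symbols matched the fly reference gene table by gene ID.

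The arrays measured RNA from mesodermal cells of embryos at the end of stage 11 and the beginning of stage 12, sorted for GFP. There were 4 groups of 3 arrays, labelled A, B and C within a group. Slou gain of function carried twi-gal4, UAS-GFP and UAS-S59, so that Slou (slouch, formerly S59) was driven in Twist-expressing cells. Wild type set 1 carried twi-gal4 and UAS-GFP. Msh gain of function carried twi-gal4, UAS-GFP and UAS-msh, and wild type set 2 carried twi-gal4 and UAS-GFP. Slou and Msh are homeodomain transcription factors that mark subsets of muscle founder cells. All 4 groups therefore shared the driver and the reporter, and any cell in which the driver was active could enter the sort. Between 2 and 5 µg of total RNA was labelled with biotin. Nothing in the labels tells if the 3 arrays of 1 group stem from separate embryo collections; a p-value here is therefore set by array-to-array spread, which can be technical.

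The proteasome is the large protease that degrades proteins tagged with ubiquitin, and it is made in nearly every cell. Its 20S core is a stack of rings: the outer rings of alpha subunits form the gate, and the inner rings of beta subunits hold the proteolytic sites. The 19S regulatory particle caps the core. Its Rpt subunits form a ring of ATPases that unfolds substrates, and its Rpn subunits bind ubiquitin chains, remove them and hold the particle together. In Drosophila many subunits have a duplicated gene that is used mainly in the testis.

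The deposited values are on a log2 scale and were scaled separately in the part that holds Slou and wild type set 1 and in the part that holds Msh and wild type set 2. Array medians were 2.59 to 2.72 in the first of these and 3.85 to 3.91 in the other, so levels are compared only within a part. The slou probe set averaged 11.07 ± 0.05 in Slou arrays and 5.58 ± 0.12 in wild type set 1 (SD, n = 3 each), a rise of 5.48 (SE 0.11, limma adjusted p = 0.00152). The probe set of Dr, the gene of Msh, averaged 9.36 ± 0.02 in the arrays labelled Msh and 9.03 ± 0.23 in wild type set 2 (SD, n = 3 each), and this change of 0.32 did not pass (SE 0.14, limma adjusted p = 0.254). The overexpression of Msh thus rests on the labels, and the group is called the arrays labelled Msh. The spiked poly-A control probe sets averaged 4.88 ± 0.12 in Slou arrays and 5.38 ± 0.13 in wild type set 1, and 7.29 ± 0.05 in the arrays labelled Msh and 8.67 ± 0.33 in wild type set 2 (SD, n = 3 each). The 3′ minus 5′ signal of the actin control, which is larger where RNA is more degraded or less fully copied, was 0.552 ± 0.044 in Slou arrays and 0.838 ± 0.121 in wild type set 1. It was 1.57 ± 0.08 in the arrays labelled Msh and 1.19 ± 0.15 in wild type set 2 (log2, SD, n = 3 each). The parts of control signal, RNA quality and cell makeup in the results below were not tested.

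Of the marker genes fixed for cell types, 7 of 12 for mesoderm and muscle were measured, and none of the 7 averaged below a log2 value of 2 in any group. The summed linear level of these 7 was 1986 to 2196 in Slou arrays against 1777 to 1832 in wild type set 1, and 6485 to 6739 in the arrays labelled Msh against 5371 to 5597 in wild type set 2. The sum hides members that moved apart: in Slou bin fell by 1.64 (limma adjusted p = 0.00926), while sns rose by 1.59 (limma adjusted p = 0.0252) and rols by 0.92 (limma adjusted p = 0.0231). Twist itself (twi) rose by 0.91 in the arrays labelled Msh (limma adjusted p = 0.0392), as did rols, by 0.74 (limma adjusted p = 0.0143). Markers of other cell types were also present. All 6 hemocyte markers were measured, with sums of 2083 to 2207 in Slou arrays against 2125 to 2217 in wild type set 1, and of 4390 to 4698 in the arrays labelled Msh against 5809 to 6342 in wild type set 2. Single hemocyte markers moved far more than their sum. The collagen genes Col4a1 and vkg fell by 2.62 and 2.97 in Slou (limma adjusted p = 0.00455 and 0.00511) and by 2.57 and 2.53 in the arrays labelled Msh (limma adjusted p = 0.00186 and 0.00322), and Pxn rose by 1.08 in Slou (limma adjusted p = 0.0151). Hml fell by 3.57 in the arrays labelled Msh (limma adjusted p = 0.0202), where it averaged below 2. The 5 epidermal markers summed to 455 to 522 in Slou arrays against 540 to 606 in wild type set 1, and to 4346 to 4634 in the arrays labelled Msh against 2649 to 3155 in wild type set 2. Single epidermal markers passed in the arrays labelled Msh: crb, grh and sdt rose by 0.57, 0.68 and 0.77 (limma adjusted p = 0.0231, 0.0297 and 0.0287). In Slou 0 of the 5 passed. The 5 measured neural markers of 6 asked summed to 403 to 475 in Slou arrays against 695 to 752 in wild type set 1, and to 3481 to 3761 in the arrays labelled Msh against 2890 to 3320 in wild type set 2. Of these, nSyb averaged below 2 in every group but wild type set 2. The neural marker pros fell by 0.98 in Slou (limma adjusted p = 0.0196), and no other neural marker passed in either comparison. The 3 measured germline markers of 5 asked summed to 29.1 to 30.7 in Slou arrays against 39.1 to 40.6 in wild type set 1. They summed to 173 to 206 in the arrays labelled Msh against 126 to 149 in wild type set 2. One of them, aub, rose by 0.58 in the arrays labelled Msh (limma adjusted p = 0.0472). In bulk RNA of this kind, fewer cells of a type and less RNA per cell cannot be told apart.

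The first question was whether driving Slou through the mesoderm changes proteasome subunit RNA. Of the 26 canonical subunits, 0 fell and 0 rose at a limma adjusted p of 0.05, where 1.08% of all 18769 probe sets fell and 1.24% rose. At an unadjusted p under 0.05, 1 was lower and 0 were higher, where 7.21% and 7.84% of all probe sets were. The lowest adjusted p among the 26 was 0.298. The estimated changes were small and nearly all on one side: 25 of 26 were negative, from -0.27 for Prosbeta3 to 0.13 for Rpt4, with a median of -0.09. Over all probe sets the median was -0.01, and it was -0.02 over the 2607 probe sets whose mean lay within the range of the canonical subunits, 53.4% of which were negative. The 95% intervals reached at most 0.53 on the log2 scale in either direction, or 1.44-fold.

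For 13 of the 26 canonical subunits all 3 Slou arrays lay below all 3 arrays of wild type set 1, and for 0 all 3 lay above. Such separation was found downward in 12.8% and upward in 12.5% of all probe sets. Tightly measured probe sets separate more often: downward in 30.2% of those within the level range of the subunits. The canonical subunits were tightly measured, with a median SD between arrays of 0.05 in Slou arrays and 0.06 in wild type set 1.

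**Figure D1:**
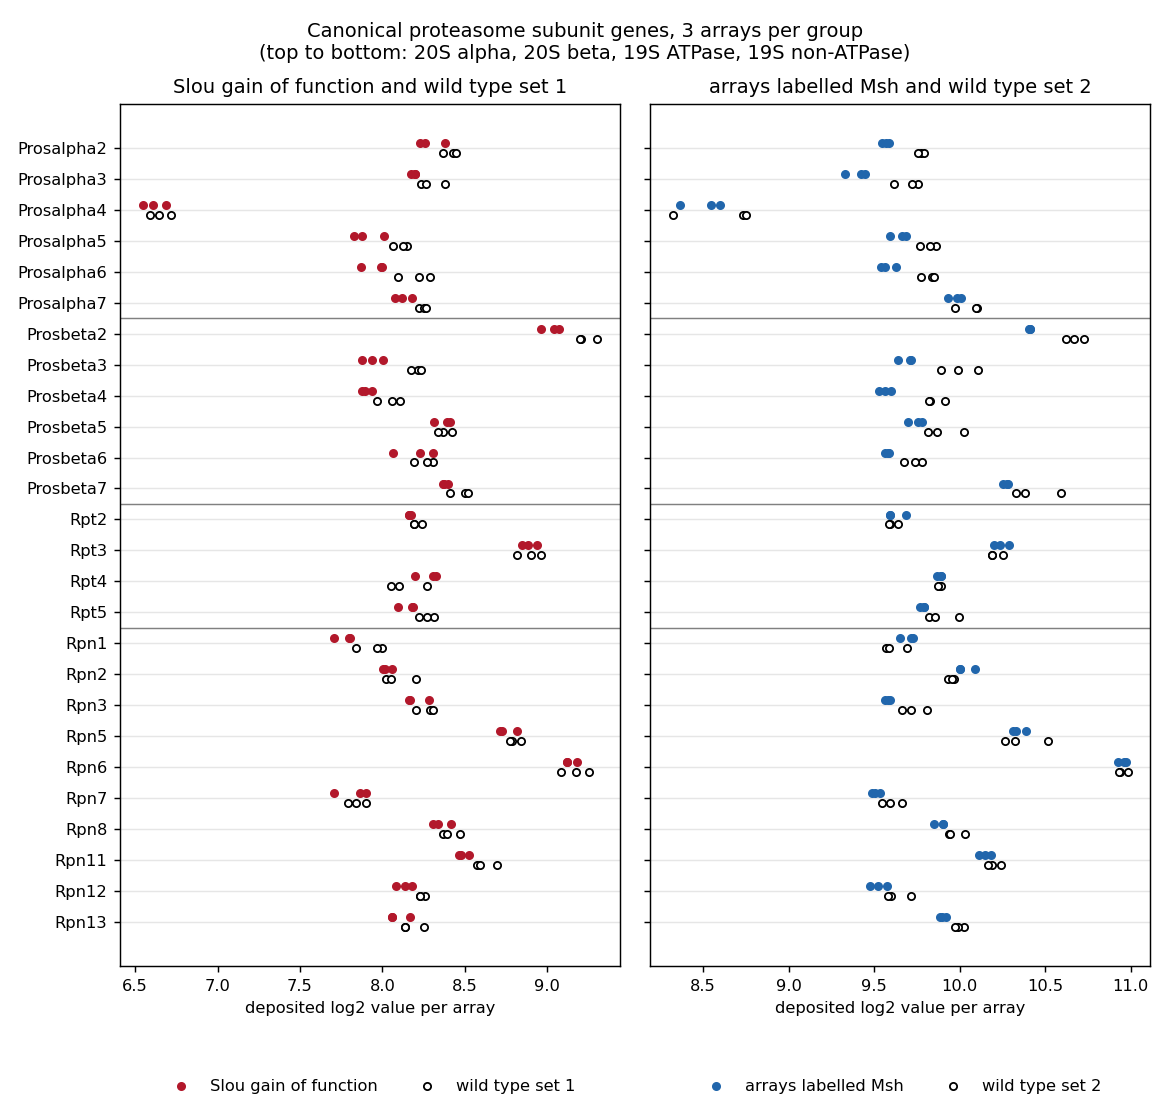
Deposited log2 value of each of the 26 canonical subunits (rows) on each array, with the gain-of-function arrays as filled points and their wild-type set as open points; the x axes of the panels are scaled separately. Slou arrays lie below all arrays of wild type set 1 for 13 genes, and the arrays labelled Msh lie below all arrays of wild type set 2 for 16.

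Among the alpha subunits of the core, which form the outer rings, all 6 with a probe set of their own had negative changes in Slou. Their median was -0.12. The probe set that Prosalpha1 shares with its relative Prosalpha1R is not counted and had a positive change of 0.36 (limma adjusted p = 0.170). Prosalpha6 had log2 values of 7.87, 8.00 and 7.99 in Slou arrays, against 8.29, 8.10 and 8.22 in wild type set 1. All 3 Slou arrays were below all 3 wild-type arrays, and the change was -0.25 (SE 0.11, limma adjusted p = 0.385). Prosalpha5 had values of 7.83, 8.01 and 7.88 in Slou arrays, against 8.15, 8.13 and 8.07 in wild type set 1. The groups again did not overlap, with a change of -0.21 (SE 0.10, limma adjusted p = 0.440). Prosalpha3 and Prosalpha7 also separated, while Prosalpha2 and Prosalpha4 overlapped with wild type. The smallest alpha change was -0.04, for Prosalpha4.

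The beta subunits form the inner rings, and all 6 measured had negative changes in Slou as well, with a median of -0.12. Prosbeta3, a beta subunit without a catalytic site, had values of 8.00, 7.94 and 7.87 in Slou arrays, against 8.22, 8.17 and 8.23 in wild type set 1. Every Slou array was lower than every wild-type array. The change of -0.27 (SE 0.09, limma adjusted p = 0.298) was the only one of the 26 whose 95% interval, -0.52 to -0.02, left out 0. Prosbeta2, which carries the trypsin-like site, had values of 9.04, 9.07 and 8.96 in Slou arrays, against 9.21, 9.20 and 9.31 in wild type set 1. These too were separate, with a change of -0.21 (SE 0.10, limma adjusted p = 0.410). Prosbeta5, which carries the chymotrypsin-like site, had values of 8.41, 8.39 and 8.31 in Slou arrays, against 8.37, 8.34 and 8.42 in wild type set 1. Here the groups overlapped fully, and the 95% interval of the change ran from -0.25 to 0.24. Prosbeta4 and Prosbeta7 separated downward and Prosbeta6 overlapped.

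In the 19S particle the Slou changes were smaller, with a median of -0.06 over 14 genes against -0.12 over the 12 core genes. Of the 4 ATPases measured, Rpt2 and Rpt5 lay below wild type on every array, and Rpt3 and Rpt4 overlapped with it. Rpt4 was the canonical subunit with a positive change. Its values were 8.20, 8.31 and 8.32 in Slou arrays, against 8.27, 8.10 and 8.05 in wild type set 1. The groups overlapped, with a change of 0.13 (SE 0.11, limma adjusted p = 0.665). All 10 non-ATPase subunits had negative changes, from -0.16 for Rpn1, a scaffold of the base, to -0.02 for Rpn7, a subunit of the lid. Rpn1, Rpn11 and Rpn12 were the ones whose arrays separated from wild type. Rpn11 is the deubiquitinase of the lid, and its values were 8.48, 8.53 and 8.46 in Slou arrays, against 8.70, 8.58 and 8.59 in wild type set 1. Its change was -0.13 (SE 0.10, limma adjusted p = 0.610).

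**Figure D2:**
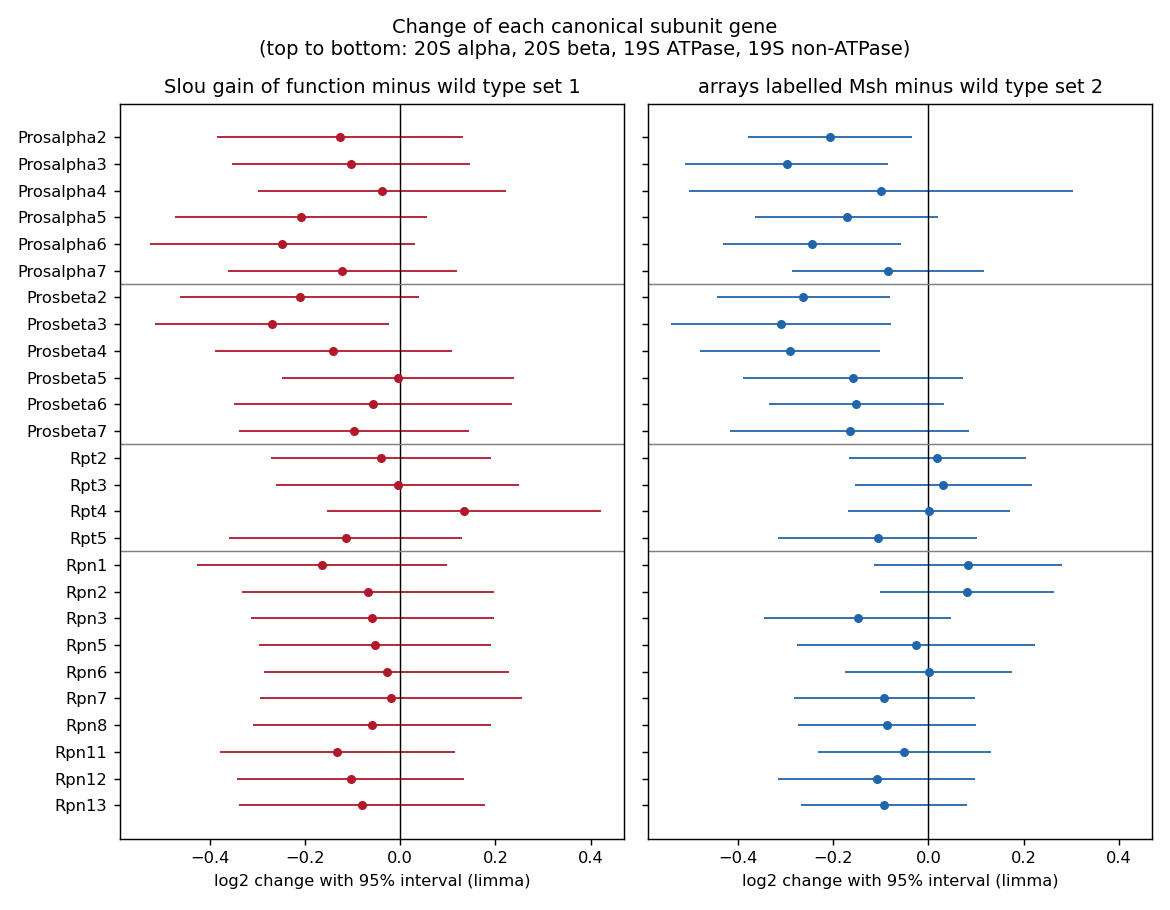
Log2 change of each canonical subunit with its 95% interval from limma, for Slou minus wild type set 1 and for the arrays labelled Msh minus wild type set 2. In Slou 1 interval leaves out 0, that of Prosbeta3, and in the arrays labelled Msh 6 do, all of them of core subunits.

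The arrays labelled Msh were compared with wild type set 2 to ask the same of the other factor. Of the 26 canonical subunits, 0 fell and 0 rose at a limma adjusted p of 0.05, where 3.95% of all probe sets fell and 2.86% rose. At an unadjusted p under 0.05, 6 were lower and 0 were higher, where 11.1% and 11.7% of all probe sets were. The lowest adjusted p was 0.0937. The changes ran from -0.31 for Prosbeta3 to 0.08 for Rpn1, with a median of -0.10, and 20 of 26 were negative. The median was 0.02 over all probe sets and 0.03 over the 2583 within the level range of the subunits, of which 45.5% were negative. No 95% interval reached beyond 0.54 on the log2 scale, or 1.45-fold.

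All 3 arrays labelled Msh lay below all 3 arrays of wild type set 2 for 16 of 26 canonical subunits, and above them for 1, Rpn2. Downward separation was found in 15.3% of all probe sets and in 32.6% of those within the level range, and upward separation in 17.5% of all. The median SD of the canonical subunits was 0.04 in the arrays labelled Msh and 0.05 in wild type set 2. Within a group, single arrays tended to be high or low across these genes. Array A of wild type set 2 was the highest of its 3 for 17 of 26 genes and array C the lowest for 17. Likewise array A of those labelled Msh was the highest for 15 and array C the lowest for 19.

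The core subunits made up the low end of the comparison. All 6 alpha subunits with a probe set of their own had negative changes in the arrays labelled Msh, with a median of -0.19. Of these, 3 had an unadjusted p under 0.05, where 11.1% of all probe sets were lower by it. The probe set shared by Prosalpha1 and Prosalpha1R is not counted and had a positive change of 0.28 (limma adjusted p = 0.168). Prosalpha3 had values of 9.42, 9.45 and 9.33 in the arrays labelled Msh, against 9.62, 9.76 and 9.72 in wild type set 2. The groups were clearly apart, with a change of -0.30 (SE 0.08, 95% interval -0.51 to -0.09, limma adjusted p = 0.113). Prosalpha2 and Prosalpha6 had changes of -0.21 and -0.24 with intervals below 0, and Prosalpha5, at -0.17, also separated. Prosalpha4 and Prosalpha7 overlapped with wild type, with changes of -0.10 and -0.08.

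All 6 beta subunits separated downward in the arrays labelled Msh, with a median change of -0.21. Such separation was found in 15.3% of all probe sets and in 32.6% of those within the level range of the subunits. Prosbeta4, a beta subunit without a catalytic site, had values of 9.60, 9.53 and 9.56 in the arrays labelled Msh, against 9.83, 9.91 and 9.82 in wild type set 2. Its change of -0.29 (SE 0.07, limma adjusted p = 0.0937) had the lowest p of the 26. Prosbeta2 had values of 10.41, 10.41 and 10.41 in the arrays labelled Msh, against 10.73, 10.67 and 10.62 in wild type set 2. The arrays labelled Msh were all but identical and below every wild-type array, with a change of -0.26 (SE 0.07, limma adjusted p = 0.106). Prosbeta3 had values of 9.71, 9.71 and 9.64 in the arrays labelled Msh, against 10.11, 9.99 and 9.89 in wild type set 2. Its change of -0.31 (SE 0.09, limma adjusted p = 0.123) had the largest size of the 26, with the groups apart. Prosbeta5 had values of 9.78, 9.75 and 9.70 in the arrays labelled Msh, against 10.02, 9.87 and 9.81 in wild type set 2. The groups did not overlap, and the change was -0.16 (SE 0.09, limma adjusted p = 0.383). Prosbeta6 and Prosbeta7 had changes of -0.15 and -0.17.

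The 19S subunits lay closer to wild type in the arrays labelled Msh. Their median change was -0.04, 8 of 14 were negative, and 0 had an unadjusted p under 0.05. Of all probe sets 11.1% were lower and 11.7% higher at that threshold. Among the ATPases, Rpt5 separated downward with a change of -0.11, and the other 3 overlapped with wild type. Rpt2 had values of 9.68, 9.59 and 9.59 in the arrays labelled Msh, against 9.64, 9.59 and 9.59 in wild type set 2. Its 95% interval ran from -0.17 to 0.21. Rpt3 had values of 10.23, 10.29 and 10.20 in the arrays labelled Msh, against 10.19, 10.25 and 10.19 in wild type set 2. The change was 0.03 (SE 0.07, limma adjusted p = 0.848), within the spread of either group. Rpt4 differed by 0.00 between group means, with an interval of -0.17 to 0.17.

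Rpn1 and Rpn2, the large scaffold subunits of the base, had the highest estimates in the arrays labelled Msh. Rpn2 had values of 10.09, 10.00 and 10.00 in the arrays labelled Msh, against 9.97, 9.93 and 9.95 in wild type set 2. All arrays labelled Msh were above all wild-type arrays, with a change of 0.08 (SE 0.07, limma adjusted p = 0.574). Rpn1 had values of 9.73, 9.72 and 9.65 in the arrays labelled Msh, against 9.69, 9.57 and 9.59 in wild type set 2. These overlapped, with a change of 0.08 (SE 0.08, limma adjusted p = 0.594). Rpn3, Rpn7 and Rpn12, which belong to the lid, lay below wild type on every array, as did Rpn8, the partner of Rpn11, and Rpn13, a ubiquitin receptor. Their changes were -0.15 for Rpn3, -0.09 for Rpn7, -0.11 for Rpn12, -0.09 for Rpn8 and -0.09 for Rpn13. Rpn5, Rpn6 and Rpn11 overlapped with wild type.

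The contrast between core and regulatory particle can be read array by array. After subtraction of each gene's wild-type mean, the median over the 12 core genes was -0.20, -0.18 and -0.23 in the arrays labelled Msh A, B and C, against 0.03, 0.01 and -0.04 in wild type set 2. The corresponding medians over the 14 genes of the 19S particle were -0.04, -0.04 and -0.05 in the arrays labelled Msh, against 0.05, -0.02 and -0.03 in wild type set 2. In Slou arrays the core medians were -0.09, -0.11 and -0.15, against 0.01, -0.04 and 0.02 in wild type set 1. Their 19S medians were -0.07, -0.03 and -0.10, against -0.03, -0.01 and 0.00 in wild type set 1. In both parts the core medians of all 3 gain-of-function arrays lay below those of all 3 wild-type arrays, and so did the 19S medians. The difference between the particles was not tested, since genes are not replicates.

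**Figure D3:**
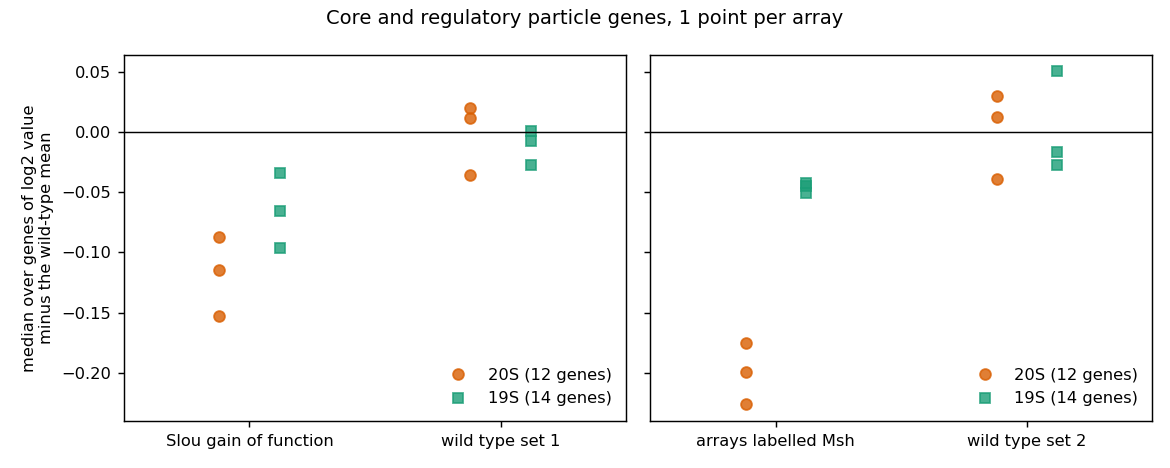
Median over the 12 core (20S) and 14 regulatory (19S) subunit genes of the log2 value minus the gene's wild-type mean, with 1 point for each array. The core points of the arrays labelled Msh lie between -0.23 and -0.18, and their 19S points between -0.05 and -0.04.

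The number of canonical subunits called depended on how the variance was estimated and how many dim probe sets entered the test. With an intensity trend in limma, 9 fell in the arrays labelled Msh, where 9.21% of all probe sets fell. These were Prosalpha2, Prosalpha3, Prosalpha5, Prosalpha6, Prosbeta2, Prosbeta3, Prosbeta4, Prosbeta6 and Rpn3. Among probe sets with a mean of at least 4, the same without Rpn3 were called, 8 in all, where 20.3% of the probe sets tested fell. With log2 values below 2 set to 2, 7 fell, where 7.74% of all probe sets did. All 7 were core subunits and were called under each of these settings. The fit of 12 arrays called 3 lower, Prosalpha3, Prosbeta3 and Prosbeta4, where 5.14% of all probe sets fell. Against the other wild-type set, which joins values scaled apart, 13 fell, where 9.91% of all probe sets did. In Slou the trend called 4 lower, Prosalpha5, Prosalpha6, Prosbeta2 and Prosbeta3, where 6.29% of all probe sets fell. The filter called 3 of these lower, all but Prosalpha5, where 15.7% of the probe sets tested fell. The floor called 1, Prosbeta3, where 3.75% fell. Against the other wild-type set 0 fell and 1 rose, Rpt3, where 4.98% of all probe sets rose.

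The Slou change was set against the Msh change in a fit of all 12 arrays. A constant shift between the separately scaled parts cancels in this difference. A difference in how far the scaling stretches the values does not cancel, and its part was not tested. For the canonical subunits the difference passed in 0 genes in the lower and 0 in the higher direction, where 4.46% and 4.76% of all probe sets passed. At an unadjusted p under 0.05, 1 was lower and 0 were higher, where 10.6% and 10.3% of all probe sets were. The median difference was 0.02, against -0.01 over all probe sets, and no 95% interval reached beyond 0.49, or 1.41-fold. The lowest adjusted p was that of Rpn1, the subunit with the largest difference. As given above, Rpn1 was close to wild type set 2 or above it in the arrays labelled Msh. It had values of 7.81, 7.80 and 7.71 in Slou arrays, against 8.00, 7.97 and 7.84 in wild type set 1. Its changes were -0.16 in Slou and 0.08 in the arrays labelled Msh, which differ by -0.25 (SE 0.11, limma adjusted p = 0.235; unadjusted p = 0.0489). With the intensity trend this difference passed (limma adjusted p = 0.0256), where 7.96% of all probe sets passed in that direction. It also passed among probe sets with a mean of at least 4 (limma adjusted p = 0.0307), where 20.5% did.

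The next in the negative direction were Rpn2, at -0.15, Rpn11, at -0.08, and Rpt2, at -0.06, with unadjusted limma p-values of 0.194, 0.425 and 0.538. Rpn2 had values of 8.02, 8.06 and 8.00 in Slou arrays, against 8.02, 8.05 and 8.20 in wild type set 1, where it overlapped. Rpt2 had values of 8.16, 8.18 and 8.16 in Slou arrays, against 8.19, 8.19 and 8.24 in wild type set 1, lower on every array. Rpn11 had values of 10.15, 10.18 and 10.11 in the arrays labelled Msh, against 10.24, 10.19 and 10.17 in wild type set 2, which overlapped. In the positive direction stood Prosalpha3, at 0.19, Prosbeta4, at 0.15, Prosbeta5, at 0.15, and Rpt4, at 0.13, with unadjusted limma p-values of 0.107 to 0.262. Prosalpha3 had values of 8.20, 8.17 and 8.20 in Slou arrays, against 8.38, 8.24 and 8.26 in wild type set 1. Prosbeta4 had values of 7.88, 7.94 and 7.89 in Slou arrays, against 8.06, 7.97 and 8.11 in wild type set 1. Both lay below wild type on every Slou array, by less than in the arrays labelled Msh. Rpt4 had values of 9.89, 9.89 and 9.86 in the arrays labelled Msh, against 9.88, 9.89 and 9.87 in wild type set 2, with no separation.

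The 14 R and T forms behaved as weakly detected probe sets. Their group mean was below a log2 value of 2 for 10 of 14 in Slou arrays, 12 in wild type set 1, 9 in the arrays labelled Msh and 8 in wild type set 2. The median SD between arrays was 0.86 in Slou arrays, 1.06 in wild type set 1, 0.95 in the arrays labelled Msh and 0.60 in wild type set 2; those of the canonical subunits were 0.05, 0.06, 0.04 and 0.05 in the same groups. Many testis markers were also low. Of 12 measured, 8 averaged below 2 in Slou arrays and 9 in wild type set 1. In the arrays labelled Msh 8 did, and in wild type set 2 6 did. The summed linear level of the 12 was 94.8 to 108.8 in Slou arrays against 91.5 to 97 in wild type set 1. It was 306 to 348 in the arrays labelled Msh against 277 to 341 in wild type set 2. Some members stood far higher. mia averaged 5.95 in Slou arrays, 6.05 in wild type set 1, and 7.40 in the arrays labelled Msh and in wild type set 2. In the arrays labelled Msh and wild type set 2, bam averaged 6.62 and 6.18, and twe 5.33 and 5.11. betaTub85D fell by 1.57 in the arrays labelled Msh (limma adjusted p = 0.0454), where it averaged below 2.

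Rpn13R and Rpt3R, relatives of the ubiquitin receptor Rpn13 and the ATPase Rpt3, were the forms that stood above a log2 value of 2 in all 4 groups. Rpn13R had values of 5.12, 5.23 and 5.21 in the arrays labelled Msh, against 5.28, 5.30 and 5.37 in wild type set 2. The groups did not overlap, with a change of -0.13 (SE 0.08, limma adjusted p = 0.407). It had values of 2.57, 3.45 and 3.07 in Slou arrays, against 3.44, 3.24 and 1.44 in wild type set 1, which overlapped over a wide spread. Rpt3R had values of 5.01, 4.77 and 5.18 in the arrays labelled Msh, against 4.90, 5.39 and 5.49 in wild type set 2. It had values of 2.86, 2.83 and 2.64 in Slou arrays, against 2.71, 2.91 and 2.01 in wild type set 1. In both comparisons its groups overlapped.

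Of the 14 R and T forms 1 rose in Slou, where 1.24% of all probe sets rose. This was Prosbeta5R1, a relative of the chymotrypsin-like subunit. It had values of 1.10, 1.52 and 1.63 in Slou arrays, against -0.95, -0.35 and -0.86 in wild type set 1. The groups were apart, with a change of 2.14 (SE 0.24, limma adjusted p = 0.0255), but every value lay below 2, and with values below 2 set to 2 no change was left. The call was kept in 2 of 14 other settings, and leaving out any 1 of the 6 arrays ended it (limma adjusted p = 0.0589 to 0.107).

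In the arrays labelled Msh 1 of the 14 forms fell, where 3.95% of all probe sets fell. This was Prosalpha3T. It had values of 1.39, -0.35 and 1.28 in the arrays labelled Msh, against 3.58, 3.42 and 3.68 in wild type set 2. The change was -2.79 (SE 0.52, limma adjusted p = 0.0487), but all 3 arrays labelled Msh lay below 2. With values below 2 set to 2 the change was -1.56 (limma adjusted p = 0.00127). The call was kept in 4 of 14 other settings. Here too leaving out any 1 of the 6 arrays ended the call (limma adjusted p = 0.0503 to 0.134). In Slou the same probe set had values of -0.64, -0.71 and 3.0, against 1.79, 0.79 and 0.47 in wild type set 1, with 1 array far above the others. The remaining forms with the highest means, Prosalpha4T2, Rpt4R, Prosbeta2R1 and Rpn12R, spread by more than 1 on the log2 scale within most groups.

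Prosalpha4T2 had values of 2.58, -0.32 and 0.43 in Slou arrays, against -0.22, 2.81 and 1.95 in wild type set 1, and of 1.58, 3.26 and 3.05 in the arrays labelled Msh, against 3.05, 2.12 and 3.86 in wild type set 2. Rpt4R had values of 1.12, 1.79 and 3.78 in Slou arrays, against -0.60, 2.21 and 3.23 in wild type set 1, and of 3.30, 1.72 and 0.93 in the arrays labelled Msh, against 1.16, 0.75 and 3.28 in wild type set 2. The groups of both genes overlapped in both comparisons. Prosbeta2R1 had values of 0.88, 2.97 and 0.88 in Slou arrays, against 0.43, 1.14 and 1.31 in wild type set 1, and of 1.38, 0.71 and 3.86 in the arrays labelled Msh, against 1.41, 3.29 and 3.49 in wild type set 2. Rpn12R had values of -0.83, 0.13 and -0.31 in Slou arrays, against -0.46, 1.72 and 3.01 in wild type set 1, and of 3.03, 3.01 and 3.54 in the arrays labelled Msh, against 1.81, 3.41 and 0.62 in wild type set 2. Their groups overlapped in both comparisons.

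**Figure D4:**
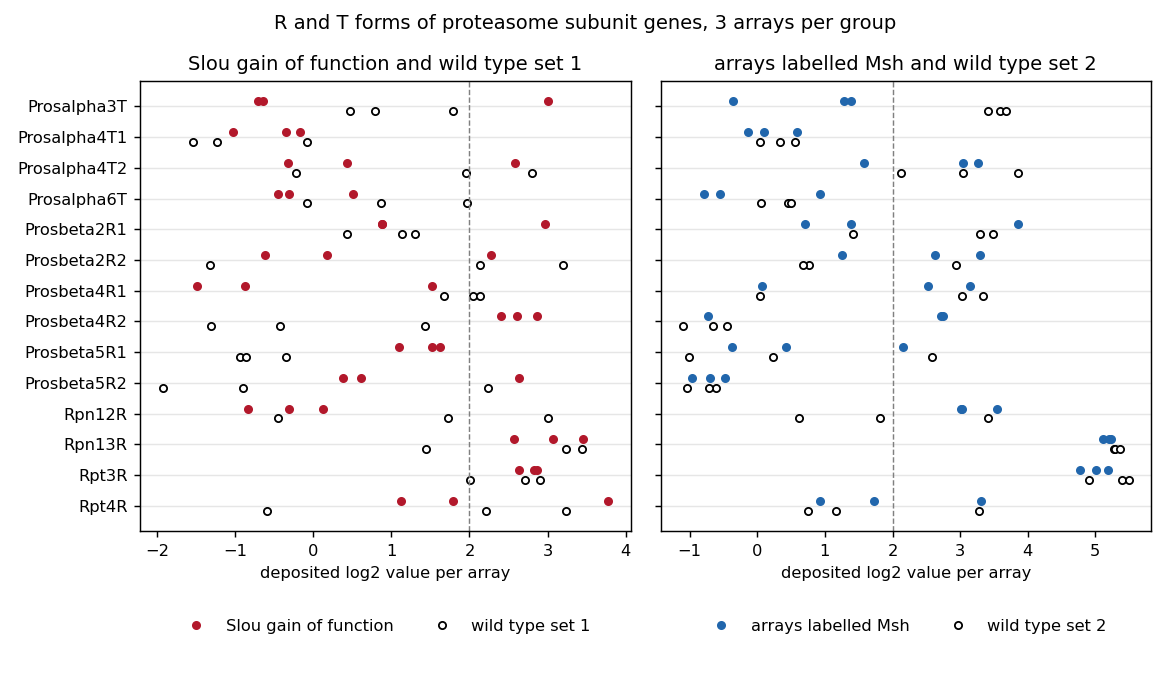
Deposited log2 value of each of the 14 R and T forms (rows) on each array, with gain-of-function arrays as filled and wild-type arrays as open points; the dashed line marks a log2 value of 2. Most points lie left of the line, and many forms spread over more than 1 within a group. Rpn13R and Rpt3R lie right of the line and spread over less than 1 in the arrays labelled Msh and wild type set 2.

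The genes around the proteasome were read from 8 lists with 114 entries, of which 86 were measured, each read from its brightest probe set. In Slou 0 of the 86 fell and 0 rose by limma, with 6 lower and 6 higher at an unadjusted p under 0.05, shares close to the 7.21% and 7.84% of all probe sets. Of the 13 measured genes on the list of proteasome assembly, activation and associated factors, 1 fell and 1 rose in the arrays labelled Msh. Of all probe sets 3.95% fell and 2.86% rose. The genes called were maf-S and cnc, which encode transcription factors. maf-S encodes the small Maf partner of the transcription factor encoded by cnc, whose mammalian relative Nrf1 raises proteasome genes when proteasome activity is low. Whether either change bears on the subunit genes was not tested. maf-S had values of 10.05, 9.94 and 9.97 in the arrays labelled Msh, against 10.58, 10.50 and 10.42 in wild type set 2. The groups were apart, and it fell by 0.52 (SE 0.08, limma adjusted p = 0.0359). cnc had values of 7.75, 7.50 and 7.69 in the arrays labelled Msh, against 6.94, 7.01 and 7.15 in wild type set 2. It rose by 0.61 (SE 0.11, limma adjusted p = 0.0458), while its other probe set, which averaged 0.36 over all arrays, had a change of -0.69 (limma adjusted p = 0.703). Leaving out any 1 of the 6 arrays, which also makes the test smaller, ended both calls (limma adjusted p = 0.0706 to 0.149 for maf-S and 0.0927 to 0.168 for cnc). In Slou these genes had changes of -0.10 for maf-S and 0.08 for cnc, and the differences between Slou and Msh changes did not pass (limma adjusted p = 0.0552 for maf-S and 0.150 for cnc).

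Of 24 measured E3 ligase subunits, which pass ubiquitin to substrates, 1 fell and 2 rose in the arrays labelled Msh, against the same 3.95% and 2.86% of all probe sets. Roc2, the RING subunit of some cullin ligases, had values of 8.56, 8.63 and 8.68 in the arrays labelled Msh, against 9.35, 9.24 and 9.16 in wild type set 2. It fell by 0.63 (SE 0.09, limma adjusted p = 0.0275), with no overlap. fzy, the Cdc20 activator of the anaphase-promoting complex, had values of 10.44, 10.49 and 10.37 in the arrays labelled Msh, against 9.97, 9.94 and 9.90 in wild type set 2, and rose by 0.50 (SE 0.08, limma adjusted p = 0.0318). The other probe sets of fzy averaged 2.33 and 0.85 over all arrays and had changes of -1.31 and -1.84 that did not pass; the dimmer of them rose in Slou by 2.97 (limma adjusted p = 0.0279). ago, an F-box protein, had values of 11.08, 11.07 and 11.08 in the arrays labelled Msh, against 10.64, 10.74 and 10.67 in wild type set 2. It rose by 0.39 (SE 0.07, limma adjusted p = 0.0449), again with no overlap. All 3 calls were lost when any 1 of the 6 arrays was left out, with limma adjusted p-values of 0.0543 to 0.121 for Roc2, 0.0606 to 0.138 for fzy and 0.0802 to 0.168 for ago. The 6 E2 enzymes, the 8 ubiquitin and E1 genes and the 5 measured cofactors and partners of p97, the segregase that hands substrates to the proteasome, had 0 members that passed by limma in the arrays labelled Msh. At an unadjusted p under 0.05, 1 E2 gene was lower, and 2 ubiquitin and E1 genes were lower and 1 was higher. Der-1 and p47, 2 partners of p97, were also lower at that threshold. Of all 86 list genes 18 were lower and 15 higher by it, where 11.1% and 11.7% of all probe sets were.

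Complexes of related build were set beside the subunits. The COP9 signalosome and the translation factor eIF3 share with the 19S lid a common set of subunit domains, and CCT is a ring-shaped chaperonin of the cytosol. The 9 COP9 genes had a median change of -0.06 in Slou and -0.12 in the arrays labelled Msh. The 13 eIF3 genes had medians on the other side, 0.06 in Slou and 0.09 in the arrays labelled Msh. In both complexes 0 genes passed by limma. At an unadjusted p under 0.05, 1 COP9 gene was lower in Slou, while 2 were lower and 1 was higher in the arrays labelled Msh. By the same measure 1 eIF3 gene was higher in each comparison. Over all probe sets 7.21% were lower and 7.84% higher in Slou, and 11.1% and 11.7% in the arrays labelled Msh. The 8 CCT genes were positive in Slou, 8 of 8 with a median of 0.08, and negative in the arrays labelled Msh, 8 of 8 with a median of -0.23, and 0 passed by limma in either comparison. At an unadjusted p under 0.05, 0 were called in Slou and 5 were lower in the arrays labelled Msh, against the same shares of all probe sets. All 8 CCT genes lay below wild type set 2 on every array labelled Msh, where 15.3% of all probe sets did. Within the level range of the proteasome subunits 32.6% did.

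The ribosomal protein genes gave the widest range. For 37 cytosolic ribosomal protein genes the median was -0.02 in Slou and -0.05 in the arrays labelled Msh, with 0 and 1 that fell. For 69 mitochondrial ribosomal protein genes it was -0.08 in Slou, with 0 that fell. In the arrays labelled Msh it was -0.47, with 39 that fell and 66 that lay below wild type set 2 on every array. Over all probe sets 1.08% fell in Slou and 3.95% in the arrays labelled Msh. Every array labelled Msh lay below wild type set 2 for 15.3% of all probe sets. The core median of -0.19 in the arrays labelled Msh thus lay between those of the cytosolic and the mitochondrial ribosomal genes.

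**Figure D5:**
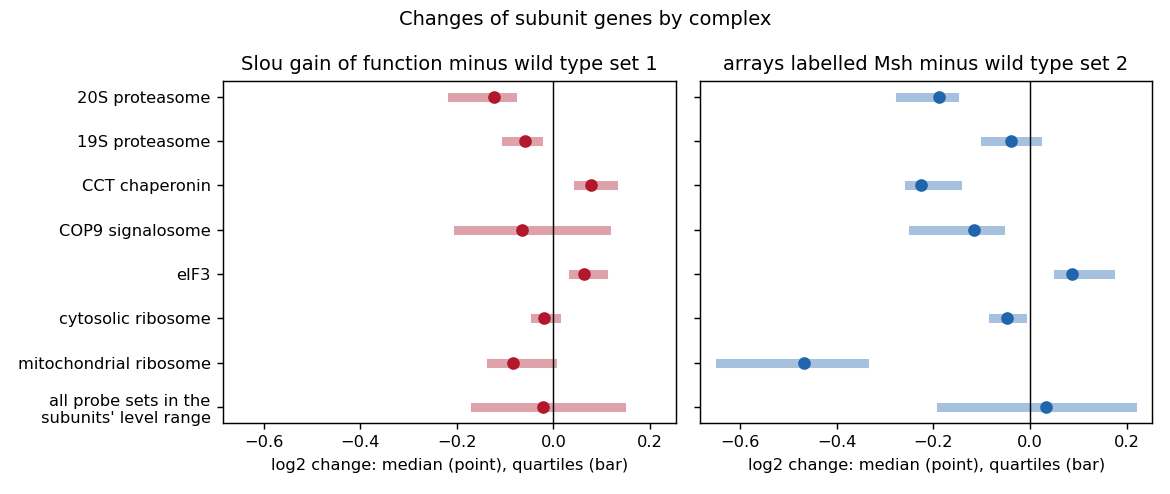
Median (point) and quartiles (bar) of the log2 change over the genes of each complex, for Slou minus wild type set 1 and for the arrays labelled Msh minus wild type set 2. In the arrays labelled Msh the core lies at -0.19, CCT at -0.23 and the mitochondrial ribosome at -0.47, while the probe sets within the subunits' level range lie at 0.03.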

How the data were processed

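Per the labels, total RNA of sorted mesodermal cells was extracted with Trizol and hybridised to 12 single-colour arrays. The deposited table holds the authors' processed values on a log2 scale, made with the R package affy per the submitters' processing notes (version not given); background correction, scaling and summary are not given in the sources used here, and the base of the log was taken from how large the values are. Of 18952 probe sets, 183 controls were left out. The rest were fitted with limma 3.58.1 in R 4.3.3 (lmFit and eBayes), with Benjamini-Hochberg adjustment over all 18769 at 0.05: Slou against wild type set 1 and Msh against wild type set 2 in 6 arrays each, and the difference of these changes in all 12. Errors beside changes are limma's moderated standard errors. Each gain of function was set against the wild-type arrays that share its scaling, a pairing that no label states. In their titles the Msh arrays carry the replicate number of wild type set 1, not that of wild type set 2. The fits of 6 arrays were run on simulated arrays with known added changes. This was a check of the code, and no power for changes as small as those of the subunits is given.

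Of the tested probe sets, 13647 had 1 gene, 402 several and 4720 none in the array annotation. Genes are named only from probe sets with 1 gene, and a gene is read from its probe set with the highest mean over 12 arrays. Prosbeta1, Rpt1, Rpt6, Rpn9 and Rpn10 were not analysed here. The members and lists were chosen with earlier results of these data known. Values in every array are given for called members, the 4 with the smallest p in each direction of each comparison, the largest difference and the 6 R or T forms with the highest means; of each list, up to 4 called genes with the smallest p are named, with Roc1b as an exception. A share of genes whose groups do not overlap is set against that over all probe sets. Alternatives were a 12-array fit, an intensity trend, quantile normalization, a filter at a mean of 4, a floor at 2, the mean of a gene's probe sets, the other or both wild-type sets after quantile normalization, the replicate letter as a block, and leaving out each array. Over all tested probe sets same-lettered arrays did not deviate together (correlations of -0.0143 to 0.0304). For the canonical subunits alone this correlation was not computed. In both wild type set 2 and the arrays labelled Msh, array A was most often the highest and array C the lowest for these genes. A shared effect of the letter on them was not tested. The number of arrays and the distance from background limit precision. No sequences or coordinates are given.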

Additional observations from a re-analysis of the deposited data

Results flagged for a closer look

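For 13 of 86 measured genes of the surrounding pathways the Slou change and the Msh change differed in the 12-array limma fit. The difference was negative for 6 and positive for 7, where 4.46% and 4.76% of all probe sets passed in those directions. Each value here is the Slou change minus the Msh change, on the log2 scale. A difference in stretch between the separately scaled parts does not cancel in it, and its part was not tested. Of the SUMO-activating enzyme, listed with ubiquitin and E1 genes, the subunit Uba2 differed by -0.52 (limma adjusted p = 0.0102) and Aos1 by -0.48 (limma adjusted p = 0.0116). Uba2 had a change of -0.30 in Slou and 0.23 in the arrays labelled Msh, and Aos1 had -0.36 and 0.12. The polyubiquitin gene Ubi-p5E differed by 0.58, with 0.13 in Slou and -0.45 in the arrays labelled Msh. Ubc6, an E2 enzyme, also differed by 0.58.

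Among E3 ligases, STUB1 differed by 0.99, with changes of 0.68 in Slou and -0.31 in the arrays labelled Msh. The RING subunit gene Roc1b differed by -2.09 (limma adjusted p = 0.0416), the largest size of the 13, with values of 1.77, 2.00 and 0.47 in Slou arrays against 3.26, 3.51 and 3.0 in wild type set 1, near background. It had 4.07, 4.10 and 4.19 in the arrays labelled Msh against 3.76, 3.52 and 4.32 in wild type set 2. It lies outside the rule for named genes and was picked with its value known. The other differences were -0.58 for sina, -0.56 for fzy and -0.42 for ago. The p97 cofactor p47 differed by 0.40. Of the chaperonin genes, CCT1 differed by 0.54, CCT5 by 0.39 and CCT6 by 0.38, each with a positive Slou change and a negative Msh change. Read from these probe sets, fzy and ago passed in the arrays labelled Msh on their own, and 0 of the 13 genes passed in Slou. A dimmer probe set of fzy, with a mean of 0.85 over 12 arrays, gave the opposite: it rose in Slou by 2.97 (limma adjusted p = 0.0279), and its difference was 4.81 (limma adjusted p = 0.0275). The 26 canonical proteasome subunits gave 0 such differences.

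With each of the 12 arrays left out in turn, the differences of Uba2, Aos1, Ubc6, STUB1, fzy and CCT1 still passed. That of p47 did not pass without any 1 array (limma adjusted p = 0.0598 to 0.108). CCT5 passed without Slou array C and CCT6 without array B of wild type set 1, and leaving out any other array ended these calls (limma adjusted p = 0.0597 to 0.0970 for CCT5 and 0.0714 to 0.112 for CCT6). Ubi-p5E passed without array B of wild type set 1, Slou array B or C, or array A of wild type set 2, and otherwise had limma adjusted p-values of 0.05003 to 0.0710. sina passed without array B of wild type set 1, Slou array C or array B of wild type set 2, and otherwise had limma adjusted p-values of 0.0509 to 0.0702. ago passed without array A of wild type set 1, Slou array A or array B of wild type set 2, and otherwise had limma adjusted p-values of 0.0511 to 0.0797. Roc1b passed without Slou array B or C or array C of wild type set 2, and otherwise had limma adjusted p-values of 0.0527 to 0.0973, and it did not pass with the intensity trend (limma adjusted p = 0.0855) or the replicate block (limma adjusted p = 0.0772).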

How the results depend on the processing

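Quantile normalization of the 6 arrays of each comparison called 0 canonical subunits. Counts of canonical subunits called lower in Slou were 4 with the intensity trend, 3 with the filter at a mean of 4 and 1 with the floor at 2. In the arrays labelled Msh they were 3 with the fit of 12 arrays, 9 with the trend, 8 with the filter, 7 with the floor and 13 against the other wild-type set. For the difference they were 1 with the trend and 1 with the filter. The shares of all probe sets called in these settings are given with the calls above. Against the other wild-type set, 1 rose in Slou (Rpt3), 4 separated downward, and the medians were 0.10 for canonical, -0.053 for core and 0.16 for 19S genes. Against both sets the Slou medians were -0.0089 (canonical) and 0.051 (19S), with 2 separated downward. The share of all probe sets that separated downward against the other set or both sets is not given here, so these counts have no background beside them. In the arrays labelled Msh the medians were -0.31, -0.39 and -0.29 against the other set, and -0.22, -0.32 and -0.17 against both; these settings join parts scaled apart. Leaving out each array kept 0 canonical calls; the canonical medians were -0.11 to -0.070 in Slou, -0.13 to -0.073 in the arrays labelled Msh and -0.011 to 0.041 for the difference. The core medians were -0.14 to -0.096, -0.22 to -0.18 and 0.039 to 0.090, and the 19S medians -0.085 to -0.033, -0.072 to -0.018 and -0.032 to 0.017, in the same order. With the replicate letter as a block, 0 canonical subunits were called, as were 0 of all probe sets for Slou and for Msh. No label says that arrays of the same letter belong together. Averaging all probe sets of a gene, which takes in dim ones, turned cnc to -0.039 and fzy to -0.89 in the arrays labelled Msh, and fzy to 1.41 in the difference. Against the other wild-type set fzy was -0.051; the cause was not tested. Each pathway gene and R or T form called was lost in at least 1 setting. The number of arrays and, for dim probe sets, the distance from background limit the precision.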

Other observations

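The annotation gives Prosalpha1, the remaining alpha subunit of the core, 1 probe set that it shares with its relative Prosalpha1R, so its signal belongs to either gene and it is not among the 40 members. This probe set had log2 values of 7.88, 7.81 and 7.86 in Slou arrays, against 7.53, 7.45 and 7.49 in wild type set 1. All Slou arrays were higher, with a change of 0.36 (SE 0.09, limma adjusted p = 0.170). It had values of 9.42, 9.38 and 9.41 in the arrays labelled Msh, against 9.27, 9.04 and 9.05 in wild type set 2. These were also all higher, with a change of 0.28 (SE 0.09, limma adjusted p = 0.168). Among the 12 core genes with a probe set of their own, 0 had a positive change in either comparison.

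PI31, a regulator of the proteasome on the list of associated factors, had values of 6.34, 6.29 and 6.35 in Slou arrays, against 5.79, 5.83 and 5.84 in wild type set 1. It had 8.22, 8.08 and 8.14 in the arrays labelled Msh, against 7.75, 7.84 and 7.85 in wild type set 2. The groups were apart in both comparisons, with changes of 0.50 in Slou (SE 0.09, limma adjusted p = 0.0777) and 0.34 in the arrays labelled Msh (SE 0.08, limma adjusted p = 0.0836). Pomp, which encodes the maturation factor of the core, had values of 6.39, 6.23 and 6.17 in Slou arrays, against 6.28, 6.17 and 6.26 in wild type set 1. It had 8.29, 8.42 and 8.43 in the arrays labelled Msh, against 8.63, 8.93 and 8.92 in wild type set 2. Its change was 0.02 in Slou and -0.45 in the arrays labelled Msh (SE 0.12, limma adjusted p = 0.100). Both genes were chosen for their values.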
